A study of Drosophila melanogaster with 5 samples.

Results

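The troponin and tropomyosin genes of *Drosophila melanogaster* were compared, isoform by isoform, between flies that developed at low (LB-flies) and at natural radiation background (NB-flies). The genes were up (troponin T), wupA (troponin I), TpnC4, TpnC41C, TpnC47D, TpnC73F and TpnC25D (troponin C), and Tm1 and Tm2 (tropomyosins). They were taken by name, and each RefSeq transcript that the count tables list for them was read in every library. These 9 genes held 65 of the 34111 listed transcripts. No read was counted in 39 of the 65 (60%, against 42.7% of all listed transcripts), 3 had fewer than 10 counts over the 5 libraries, and 23 were tested among 17337 transcripts of the whole table.

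The troponins and tropomyosins are the calcium switch of the thin filament of striated muscle. Tropomyosin lies along the actin filament and covers the sites that myosin binds, and the troponin complex holds it there: troponin T ties the complex to tropomyosin, troponin I inhibits contraction, and troponin C binds calcium and releases the block. In male flies the main bulk of this muscle is the flight and jump muscle of the thorax, and several of these genes make separate isoforms for flight, leg and body wall muscle by the choice of promoter and by alternative splicing.

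The libraries were made from whole wild-type males of the Oregon line (Oregon-R in the study's methods), 3 days old by the labels and 2 to 3 days by the methods, each library from pooled males of 1 vial. The 3 libraries of LB-flies came from flies that developed in a deep underground laboratory with low radiation background, and the 2 libraries of NB-flies from flies that developed at natural background in a laboratory on the ground near the tunnel. All flies were reared in the dark on the same medium in 1 experiment, so that radiation and any other difference between the 2 laboratories cannot be told apart. The question was whether the transcriptome differs after development at low background.

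Each library held 23027411 to 24790062 counted reads in LB-flies and 25001792 and 26036113 in NB-flies, and 3 reads, the limit that a count of 0 allows, were 0.115 to 0.136 CPM, the count scaled to a common TMM-adjusted library size. Muscle, testis and accessory gland markers were detected in every library, though some, such as dj of the testis, only near that limit, and of 6 ovary and female fat body genes only 2 passed the filter, also near it. Replicate 1 of the LB-flies stood apart in several tissues. It was the lowest of the 5 libraries for the most counted transcript of 6 of the 9 troponin and tropomyosin genes and of 7 of 9 muscle marker genes, against 22.5% of all tested transcripts. It was also the lowest for 4 of 4 accessory gland markers, with a mean log2(CPM + 0.5) of 6.42, against 7.85 and 7.95 in the other LB libraries and 7.22 and 7.35 in NB-flies, and for 2 of 3 midgut markers. The testis markers went the other way, with a mean log2(CPM + 0.5) of 5.74 in this library. The other LB libraries had 5.52 and 5.50, and the NB libraries 5.37 and 5.19. For the most counted transcript of the 6 troponin and tropomyosin genes lowest in replicate 1 of the LB-flies, the log2 fold change is given with and without this library. Log2 fold changes of single other transcripts use all 5 libraries.

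The groups stood far apart in 1 transcript of troponin T. NM_001258724.2 of up was far lower in LB-flies than in NB-flies, with a mean of 2.14 ± 1.45 CPM (SD, n = 3) against 77.6 ± 66.2 CPM (SD, n = 2). The other 22 tested transcripts, of troponin T itself, of troponin I, of all 5 troponin C genes and of both tropomyosin genes, had log2 fold changes between -0.44 and 0.71, and the smallest adjusted p among them was 0.674 (edgeR's quasi-likelihood test, Benjamini-Hochberg over all tested transcripts). The call rule was an adjusted p under 0.05 with a change of at least 1.5-fold. Under edgeR it called none of the 23 and 0% of all 17337 transcripts. Under DESeq2 it called 1 of the 23, the up transcript, and 0.438% of all. DESeq2 gave an adjusted p to only 16 of the 23. Here and in the gene lists below, transcripts without a DESeq2 adjusted p counted as not called. At an unadjusted p under 0.05 edgeR gave 1 of 23, again the up transcript and lower in LB-flies, against 7.57% of all in either direction and 3.66% of all lower in LB-flies.

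**Figure D1:**
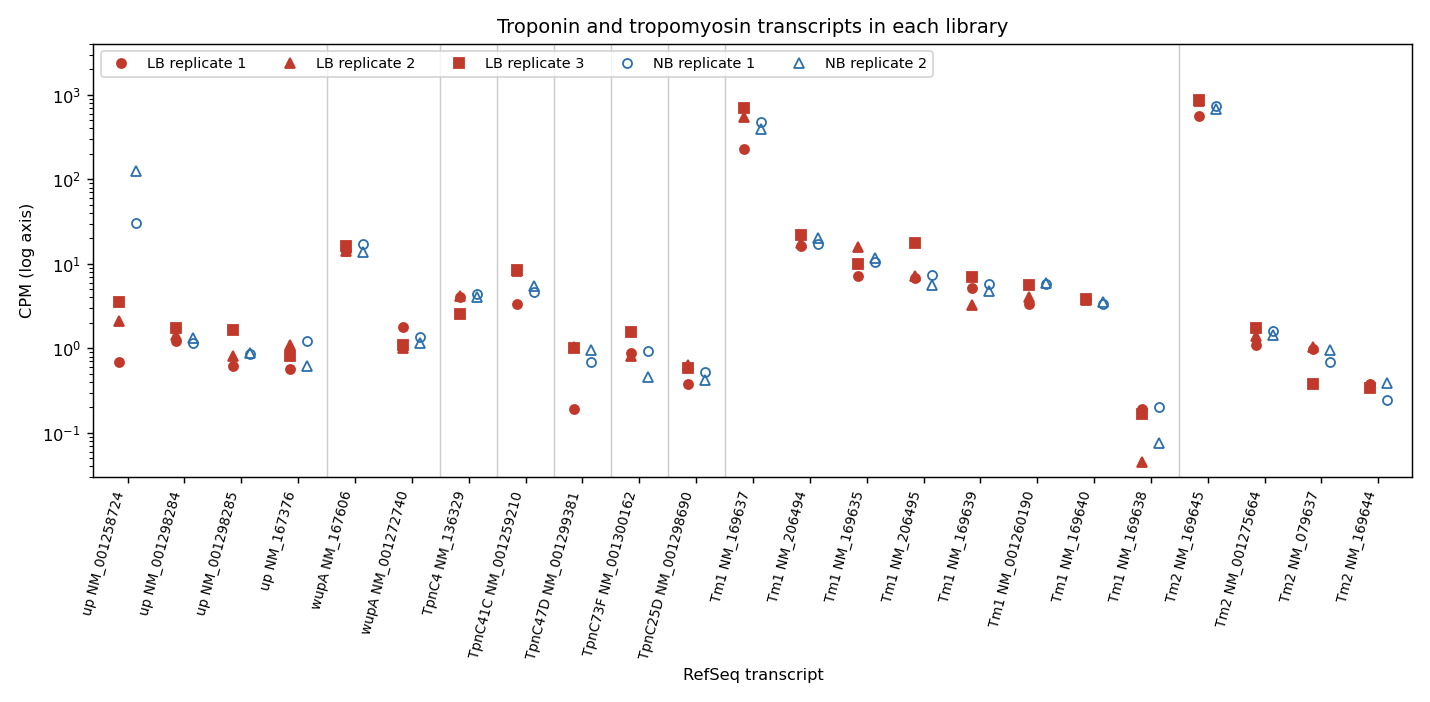
CPM on a log axis of the 23 tested troponin and tropomyosin transcripts, with filled red symbols for the 3 libraries of LB-flies and open blue symbols for the 2 of NB-flies, 1 symbol shape for each replicate. Only for the first transcript of up do the groups lie far apart, at 0.687 to 3.58 CPM in LB-flies and 30.8 and 124 CPM in NB-flies.

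What these counts cover decides how they can be read. The tables give 1 number per transcript rather than 1 per gene, and between 53.9% and 56.5% of the records of each library were ambiguous and entered no count. In the Ensembl annotation of the same assembly (dm6 coordinates), only 7233 of the 22754 exon bases of the 9 genes (31.8%) lie in a single annotated transcript, called own bases here. The number of transcripts with any count equalled the number of annotated transcripts with own bases in 8 of the 9 genes, and in 84.7% of 6408 counted genes that had several transcripts and the same number in both annotations. In the exception, Tm1, the tables listed 17 and the annotation 18, and 8 transcripts had counts and 9 had own bases. The counts of a troponin or tropomyosin transcript are therefore read here as those of its own bases. The long exons that all isoforms share, and so the level of the whole gene, were not measured. Levels are not compared between transcripts or genes, because the own bases differ in length.

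Troponin T showed how small these windows are. The gene up lies on chromosome X from 13593474 to 13602578 on the minus strand, and 14 of its 18 listed transcripts had no count in any library. Its own bases were 802 of 2530 exon bases, in 4 annotated transcripts. Of these, up-RR, up-RS and up-RD each had a 5' UTR stretch in the first exon, of 137, 287 and 271 bases (X, 13602229 to 13602365, 13601368 to 13601654, and 13599510 to 13599780). The fourth, up-RN, had 4 coding bases in its exon 3 (13599412 to 13599415) and 103 bases at the end of its 3' UTR (13593474 to 13593576). Which RefSeq transcript is which of these 4 is not paired in the tables used here. No other gene overlapped up in the RefSeq gene table. The nearest, Tpst, ended 249 bases beyond the 3' end of up, and its counted transcript had 487, 394 and 362 counts in LB-flies and 462 and 510 in NB-flies (log2 fold change -0.15, SE 0.15, edgeR adjusted p = 0.812).

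**Figure D2:**
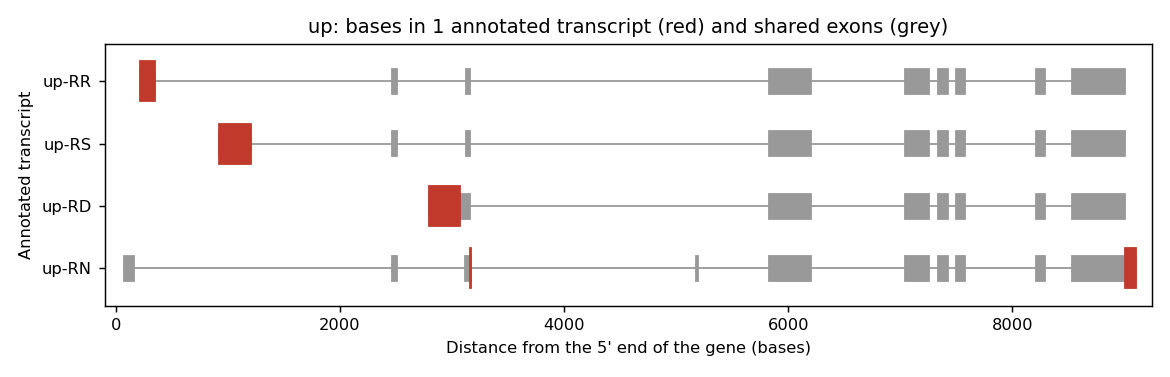
Exons of the 4 annotated transcripts of up that have bases of their own, drawn to scale from the 5' end of the gene (distance in bases), with shared exon bases in grey and own bases in red. The red stretches of up-RR, up-RS and up-RD lie in their first exons and span 137, 287 and 271 bases, and those of up-RN are 4 coding bases and the last 103 bases.

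The up transcript NM_001258724.2 had 18, 47 and 85 counts in the 3 libraries of LB-flies, against 764 and 3243 counts in the 2 of NB-flies. The groups did not overlap, and the lowest NB library was 8.59 times the highest LB library in CPM. The libraries also differed within each group, by 5.21 times in LB-flies and 4.04 times in NB-flies, and only 0.461% of all tested transcripts had a larger ratio between the 2 NB libraries. Groups without overlap were found in 3 of the 23 transcripts, against 27.9% of all tested. All 3 LB values lay below both NB values in 2 of them and above both in 1, against 13.1% and 14.8% of all tested.

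The log2 fold change of NM_001258724.2 was -5.19 (SE 0.80, 95% interval -7.13 to -3.24), with an unadjusted edgeR p of 0.000549 and an adjusted p of 0.560. It ranked 17th of 17337 by p, and was the largest difference towards lower values in LB-flies among the 12652 transcripts with 100 or more counts. DESeq2 gave -5.17 with an adjusted p of 2.7e-04. In a library of whole flies, fewer cells of a type and less RNA in each cell cannot be told apart. The part of tissue content in this difference was not tested. Among single other muscle genes, the log2 fold change was 0.09 for Tm2, -0.04 for wupA and 0.04 for the myosin light chain Mlc2. It was 0.24 and -0.12 for the actins Act88F and Act57B (most counted transcript of each gene), and -0.32 for NM_166639.2 of the calcium pump SERCA. Of 60 tested transcripts of filament, Z-disc and calcium handling genes, 22 had a positive and 38 a negative value, with a median of -0.12. The size of the difference in NM_001258724.2 rested on the NB libraries. Without replicate 2 of NB-flies its log2 fold change was -3.85, and without replicate 1 of NB-flies it was -5.86. Without replicate 3 of LB-flies it was -5.79, and without replicate 1 it was -4.76.

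The 3 other counted transcripts of troponin T gave no such pattern. NM_001298284.1 had 32, 32 and 41 counts in LB-flies and 29 and 35 in NB-flies, a log2 fold change of 0.22 (95% interval -0.45 to 0.89). NM_001298285.1 had 16, 18 and 39 counts in LB-flies and 21 and 23 in NB-flies, a log2 fold change of 0.24. NM_167376.2 had 15, 24 and 19 counts in LB-flies and 30 and 16 in NB-flies, a log2 fold change of -0.15. The groups overlapped in all 3.

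The share of NM_001258724.2 in the counted reads of up was lower in every LB library. It held 22.2%, 38.8% and 46.2% of these reads in LB-flies, against 90.5% and 97.8% in NB-flies. These are shares of counted reads and not of mRNA molecules, since the own bases differ in length. In the test of isoform usage, which asks whether a transcript differed from the other counted transcripts of its gene, up ranked 1st of 2243 genes, with an adjusted p of 0.250 (edgeR's diffSpliceDGE with the Simes method). The troponin C genes, with 1 tested transcript each, could not enter this test. None of up, wupA, Tm1 and Tm2 and 0% of the 2243 genes passed, and 1.52% of the 2243 had an unadjusted p under 0.05. With only transcripts of at least 10 counts in every library, up passed (adjusted p = 0.0283), and without replicate 2 of NB-flies its adjusted p was 1.0.

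**Figure D3:**
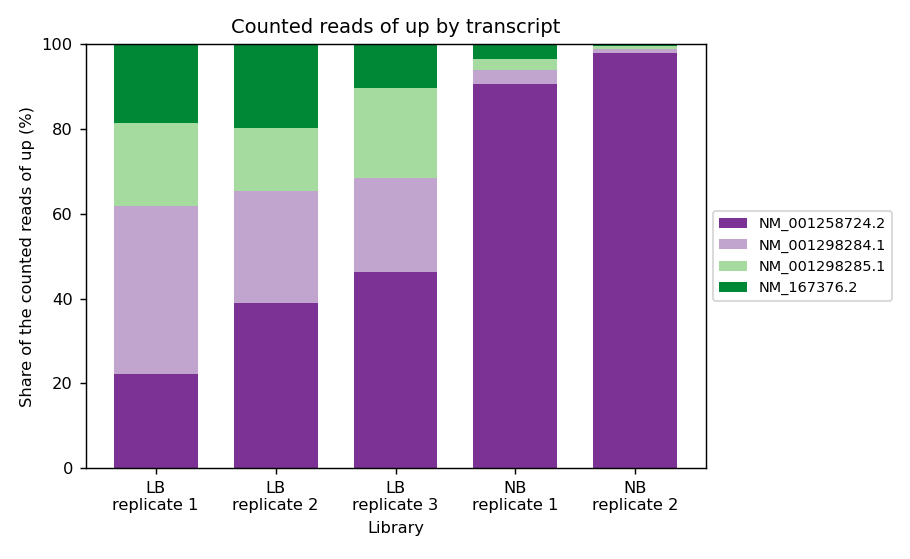
Share in percent of the counted reads of up in each of its 4 counted transcripts, 1 bar for each library, LB-flies on the left and NB-flies on the right. The dark purple part, NM_001258724.2, takes 22.2% to 46.2% of the bar in LB-flies and 90.5% and 97.8% in NB-flies.

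Summed over its transcripts, up had 81, 121 and 184 counts in LB-flies and 844 and 3317 in NB-flies, a log2 fold change of -3.91 (SE 0.64). edgeR gave an adjusted p of 0.583 and an unadjusted p of 0.000925, and DESeq2 an adjusted p of 1.07e-07. Among 13963 summed genes edgeR called 0% and gave an unadjusted p under 0.05 to 7.97%, and DESeq2 called 0.523%. The other 8 genes had summed log2 fold changes between -0.26 for TpnC4 and 0.63 for TpnC73F, and neither tool called any of them.

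Troponin I, the inhibitory subunit, is made in flies by the single gene wupA on chromosome X. Its own bases were 200 of 1978 exon bases, and 10 of its 13 listed transcripts had no count. NM_167606.3, with 91.8% of the counted reads of the gene, had 375, 312 and 387 counts in LB-flies and 421 and 359 in NB-flies. In CPM the 3 LB values lay between the 2 NB values, and the log2 fold change was -0.04 (SE 0.17, 95% interval -0.45 to 0.37, edgeR adjusted p = 0.959). NM_001272740.2 had 47, 22 and 26 counts in LB-flies and 34 and 30 in NB-flies (log2 fold change 0.05), and NM_001272741.1, which was not tested, had 6 counts in all. The usage test of the 2 tested isoforms gave an adjusted p of 1.0 (diffSpliceDGE).

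The 5 troponin C genes each gave 1 tested transcript. For TpnC4, TpnC41C, TpnC47D and TpnC73F a single annotated transcript has own bases. If the counts are those of own bases, the counted stretch can be placed, though its reads can also run into shared bases. The stretch is 103 bases of the first exon of TpnC4-RA, in the 5' UTR (2R, 5507742 to 5507844). For TpnC41C-RB it is 1059 bases of the last exon, in the 3' UTR (2R, 5065237 to 5066295), for TpnC47D-RB 190 bases of the 3' UTR (2R, 11273845 to 11274034), and for TpnC73F-RC 97 bases of the 5' UTR (3L, 17046063 to 17046159). The second listed transcript of each of these 4 genes had no count.

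TpnC4, the isoform linked to stretch activation of flight muscle, had 107, 91 and 60 counts in LB-flies and 108 and 107 in NB-flies. In CPM the groups overlapped, and replicate 3 of the LB-flies was the lowest of the 5 libraries (log2 fold change -0.24, SE 0.27, edgeR adjusted p = 0.826). TpnC41C, the other main troponin C of adult flight and jump muscle, had 87, 180 and 200 counts in LB-flies and 115 and 144 in NB-flies. Replicates 2 and 3 of the LB-flies were the highest of the 5 libraries and replicate 1 the lowest, and the log2 fold change was 0.38 (SE 0.42, edgeR adjusted p = 0.815). Without that replicate it was 0.71 (SE 0.21, edgeR adjusted p = 0.420).

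TpnC47D and TpnC73F serve larval and adult body wall and leg muscle. TpnC47D had 5, 23 and 24 counts in LB-flies and 17 and 25 in NB-flies (log2 fold change -0.15, SE 0.66). The low value was again that of replicate 1 of the LB-flies, at 20.6% of the mean of the other 4 libraries, and without it the log2 fold change was 0.32. TpnC73F had 23, 18 and 37 counts in LB-flies and 23 and 12 in NB-flies (log2 fold change 0.65, SE 0.47, edgeR adjusted p = 0.722). TpnC25D had 10, 14 and 14 counts in LB-flies and 13 and 11 in NB-flies in NM_001298690.1. Its log2 fold change was 0.17, and 0.38 without replicate 1 of the LB-flies. NM_001298691.1 of TpnC25D, which was not tested, had 6 counts in all. At these counts the intervals were wide: that of TpnC47D ran between -1.76 and 1.45 and that of TpnC73F between -0.49 and 1.78.

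**Figure D4:**
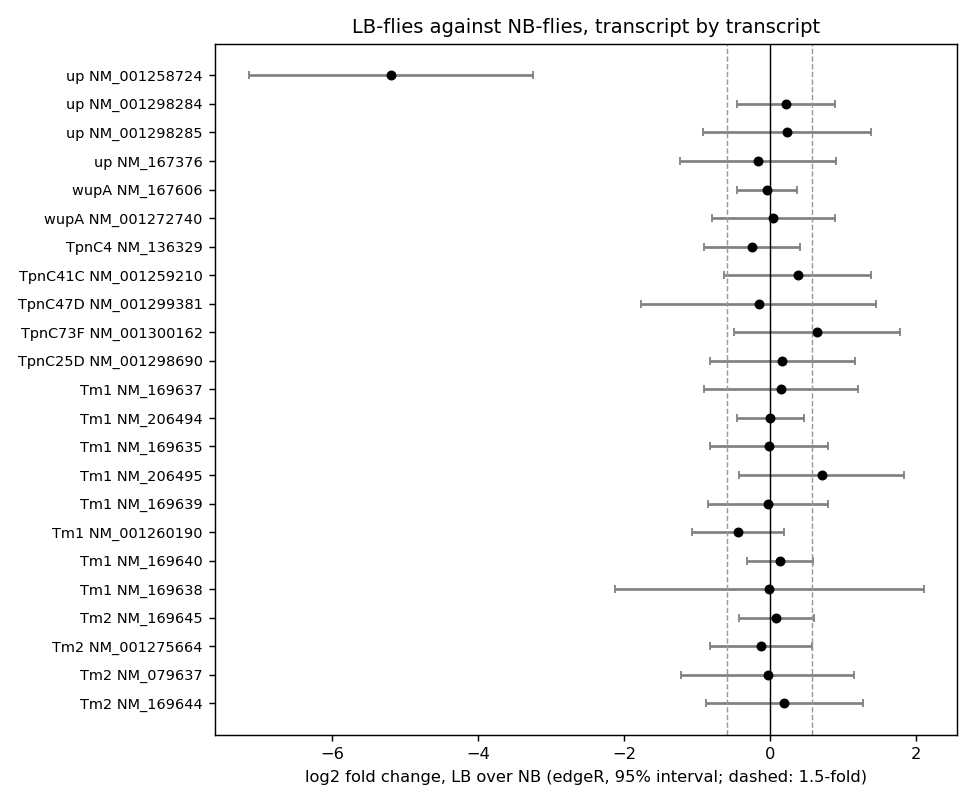
log2 fold change of LB-flies over NB-flies for the 23 tested transcripts (points) with 95% intervals (bars), edgeR, dashed lines at 1.5-fold. The first transcript of up lies at -5.19, and the intervals of the other 22 all include 0.

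Tropomyosin 1 is a large gene with muscle and cytoplasmic isoforms, among them the long flight muscle forms once called troponin H. Of its 17 listed transcripts 8 had counts, and NM_169637.4 held 89.8% of the counted reads. It had 5923, 11936 and 16421 counts in LB-flies and 11889 and 10314 in NB-flies. The 3 LB libraries spread on both sides of the NB libraries, with replicate 1 lowest and replicate 3 highest, and the log2 fold change was 0.15 (SE 0.44, 95% interval -0.90 to 1.21). Without replicate 1 of the LB-flies it was 0.50 (SE 0.17, edgeR adjusted p = 0.420).

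Among the lesser transcripts of Tm1, 2 had groups that did not overlap. NM_001260190.1 had 87, 88 and 132 counts in LB-flies and 143 and 153 in NB-flies. After scaling to CPM all 3 LB values lay below both NB values, by a small margin for replicate 3 (5.56 against 5.76 CPM), and the log2 fold change was -0.44 (SE 0.26, edgeR adjusted p = 0.674). NM_169640.4 varied little, with 100, 83 and 90 counts in LB-flies and 84 and 91 in NB-flies. This gave 3.79 ± 0.024 CPM (SD, n = 3) in LB-flies and 3.44 ± 0.076 CPM (SD, n = 2) in NB-flies, all LB values above both NB values, and a log2 fold change of 0.14 (SE 0.19, edgeR adjusted p = 0.852).

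NM_206495.2 of Tm1 had the largest positive fold change of the 23, and it rested on 1 library. It had 179, 157 and 420 counts in LB-flies and 182 and 145 in NB-flies, and of the LB libraries only replicate 3 lay above both NB values in CPM (log2 fold change 0.71, SE 0.47, edgeR adjusted p = 0.697). NM_206494.3 had 423, 390 and 524 counts in LB-flies and 425 and 520 in NB-flies (log2 fold change 0.01). NM_169635.3 had 190, 351 and 239 counts in LB-flies and 263 and 307 in NB-flies (log2 fold change -0.01). In both the groups overlapped. NM_169639.3 had 134, 72 and 168 counts in LB-flies and 143 and 123 in NB-flies (log2 fold change -0.02), and NM_169638.4, with 1 to 5 counts in each library, was too sparse to compare. The usage test of the 8 isoforms of Tm1 gave an adjusted p of 1.0 (diffSpliceDGE).

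Tropomyosin 2 encodes the main muscle tropomyosin. NM_169645.4 held 99.6% of its counted reads, with 14720, 18482 and 20552 counts in LB-flies and 18285 and 17920 in NB-flies. Here too replicate 1 of the LB-flies was lowest and replicates 2 and 3 were highest, and the log2 fold change was 0.09 (SE 0.21, 95% interval -0.43 to 0.60). Without that replicate it was 0.27 (SE 0.12, edgeR adjusted p = 0.442). The other 3 tested transcripts had 6 to 41 counts in each library and log2 fold changes between -0.12 and 0.20, and NM_001300408.1, which was not tested, had 3 counts in LB-flies and 6 in NB-flies in all. The usage test of Tm2 gave an adjusted p of 1.0 (diffSpliceDGE).

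Most differences over the 23 transcripts were small. Of them 12 had a positive and 11 a negative log2 fold change, their median was 0.01 against -0.02 for all tested, and the median size without regard to sign was 0.15 against 0.25. Changes past 1.5-fold were seen in 3 of 23, against 17.5% of all.

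Replicate 1 of the LB-flies shaped the LB values of several of these genes. In the most counted transcript of each gene it stood at 42.9% of the mean of the other 4 libraries for Tm1, 71.8% for Tm2 and 49.7% for TpnC41C, but at 93.6% for wupA and 108% for TpnC4. Most muscle markers outside the family were low in it too. Of 9, the lowest were flightin (fln) at 32.4%, the flight muscle actin Act88F at 38.1% and the titin-related Strn-Mlck at 44.8%. Another 4 stood between 69.0% and 75.4%, and Zasp66, also of flight muscle, at 91.1% and Act87E at 119%, while the median of all tested transcripts was 101%. Without this library 15 of the 23 transcripts had a positive and 8 a negative log2 fold change, with a median of 0.14, and 3 had an unadjusted edgeR p under 0.05 (up, TpnC41C and Tm1), against 11.8% of all. No adjusted p of the 23 was then below 0.420. The part of tissue content in these low values was not tested.

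**Figure D5:**
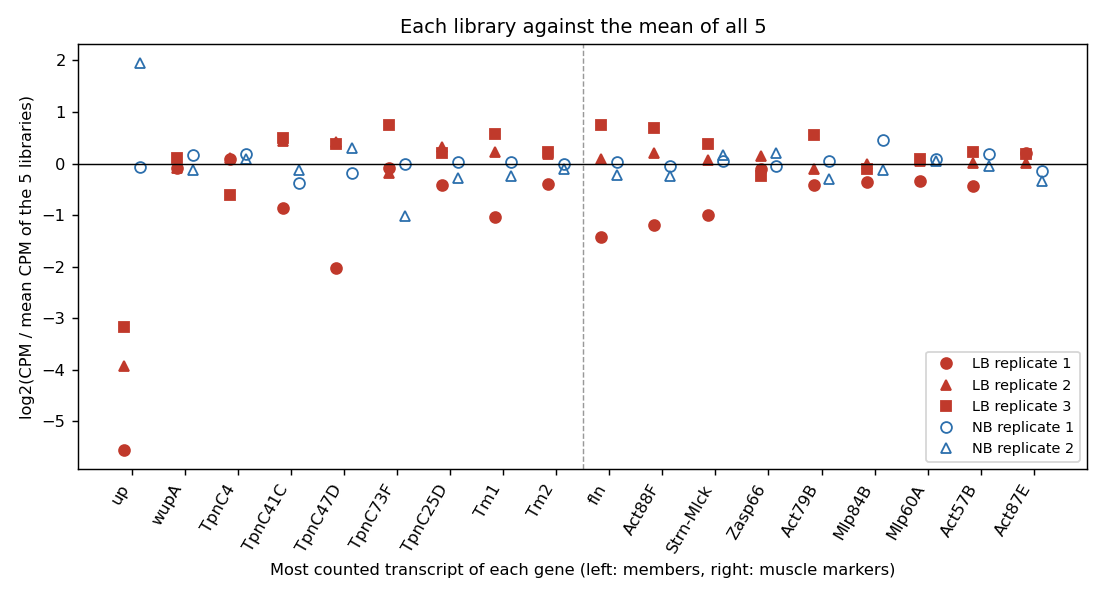
log2 of CPM over the mean CPM of the 5 libraries for the most counted transcript of the 9 troponin and tropomyosin genes (left) and of 9 muscle marker genes (right), filled red symbols for LB-flies and open blue for NB-flies. Replicate 1 of the LB-flies is the lowest symbol for 6 of the 9 genes on the left and 7 of the 9 on the right.

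The proteins that troponin and tropomyosin work with were read as a list of 24 genes of the thin and thick filament, the Z-disc and calcium handling. Of these genes 23 had tested transcripts, 60 in all. None of the 60 was called by edgeR or DESeq2, which called 0% and 0.438% of all tested. The median log2 fold change of the 60 was -0.12. It was positive in 22 and negative in 38, and all 3 LB values lay below both NB values in 5 and above both in 1, against 13.1% and 14.8% of all tested. Of the 60, 1 was higher and 2 were lower in LB-flies at an unadjusted edgeR p under 0.05, no larger a share than the 7.57% of all tested. The higher one was NM_169525.2 of Act87E, an actin of larval and visceral muscle (30.7, 27.0 and 30.6 CPM in LB-flies, 24.3 and 21.3 CPM in NB-flies, log2 fold change 0.37). The lower ones were NM_001276182.1 of tropomodulin (tmod), which caps the pointed end of the thin filament next to tropomyosin (-0.39), and NM_166639.2 of the calcium pump SERCA (-0.32). The other tested transcript of Act87E stood at 0.14. Other transcripts of tmod lay between -0.43 and 0.42, and those of SERCA between -0.18 and 0.10.

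Among 11 regulators of muscle identity and splicing, 27 transcripts were tested, with a median log2 fold change of -0.33. It was positive in 5 and negative in 22, where 47.4% of all tested transcripts had a positive one. All 3 LB values lay below both NB values in 11 of the 27 and above both in 2, against 13.1% and 14.8% of all tested. At an unadjusted edgeR p under 0.05, 2 of the 27 were lower and none higher, against 3.66% of all tested lower and 7.57% in either direction. None was called by edgeR or DESeq2, which called 0% and 0.438% of all tested. The smallest p was that of vg, the wing and flight muscle factor vestigial, with 29.4, 30.3 and 25.5 CPM in LB-flies and 41.0 and 39.8 CPM in NB-flies (log2 fold change -0.51, SE 0.13, edgeR adjusted p = 0.625). NM_001273477.1 of bru1, the flight muscle splicing factor Bruno 1 (arrest), had 2.18, 2.27 and 1.39 CPM in LB-flies and 3.55 and 3.76 CPM in NB-flies (-0.91, SE 0.27). More counted transcripts of bru1 had positive values: NM_165002.2 had 29.4, 26.2 and 30.9 CPM in LB-flies and 19.6 and 26.8 CPM in NB-flies (0.31), and NM_165003.3 and NM_165005.3 stood at 0.41 and 0.16. The homeodomain factor exd came next by p, at -0.37. Of the neuron markers, 12 of 13 tested transcripts also had a negative log2 fold change, 5 of them with all LB values below both NB values, and the part of tissue content in the regulator values was not tested.

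The transcripts most like NM_001258724.2 of up over the 5 libraries belonged to none of the muscle lists. Of 12648 transcripts of other genes with 100 or more counts, the 5 with the smallest root-mean-square difference of centred log2(CPM + 0.5) profiles were those of LManIV (1.31), LManVI (1.34), CG15533 (1.47), CG18179 (1.48) and CG34136 (1.52). LManIV and LManVI are lysosomal alpha-mannosidases, CG15533 belongs to the sphingomyelinases and CG18179 to the serine proteases. LManIV had 43, 101 and 220 counts in LB-flies and 1541 and 680 in NB-flies, so that its NB libraries stood in the other order from those of up. CG34136 had 2141, 1836 and 2025 counts in LB-flies and 4726 and 13132 in NB-flies, with the same NB library highest as in up. All 5 had lower values in every LB library than in both NB libraries, which the choice by likeness fixes in part.

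The tested midgut markers also had lower values in LB-flies. These were the digestive protease genes alphaTry, Jon65Aiii and Jon99Ciii, and betaTry was not tested. None of the 3 was called by edgeR or DESeq2, which called 0% and 0.438% of all tested. All 3 had LB values below both NB values, against 13.1% of all tested, and an edgeR adjusted p of 0.625. Their mean log2(CPM + 0.5) was 8.78, 9.41 and 9.0 in LB-flies and 9.68 and 9.73 in NB-flies. Their log2 fold changes, between -0.83 and -0.45, were far smaller than that of up. Of the testis markers, 5 of 5 had a positive log2 fold change, and in 3 of them every LB value exceeded both NB values, against 14.8% of all tested. Of these 5, Mst84Dc was called by DESeq2 (log2 fold change 0.69, adjusted p = 0.00233), against 0.438% of all tested.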

How the data were processed

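RNA from 5 vials of males, 3 of LB-flies and 2 of NB-flies, was enriched for poly(A) and sequenced as single-end reads from a stranded kit. Per the study's methods and processing notes, reads were trimmed with Trim Galore and Cutadapt, aligned to dm6 with repeats masked (HISAT2) and counted with HTSeq. The counting mode and strand setting are not given in the sources used here. The values the authors deposited are whole-number counts for each of 34111 RefSeq transcripts, not normalized. The 5 summary lines of each file stayed out of library sizes and tests, which left 26.4% to 28.4% of the records.

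Groups were taken from the labels. Transcripts were matched to symbols in the RefSeq gene table (33899 matched), and own bases were read from the Ensembl annotation of the same assembly. Transcripts with 10 or more counts over the 5 libraries were tested with edgeR 4.0.16 (quasi-likelihood, TMM, Benjamini-Hochberg over all 17337) in R 4.3.3, without covariates. Counts were also summed for each gene, and isoform usage was tested with diffSpliceDGE. An exact permutation test of 3 against 2 libraries cannot go below p = 0.1, so none was used. Alternatives were DESeq2 1.42.0, limma-voom (limma 3.58.1), other scalings and filters, each library left out, and a replicate block. The tests of single transcripts with edgeR, DESeq2 and limma-voom, and diffSpliceDGE, were checked on simulated data. The tests of summed genes, the replicate blocks and limma diffSplice were not. All listed transcripts of the 9 genes are accounted for. Of the partner and regulator lists the 3 smallest p were named, and by likeness the 5 nearest transcripts. The other transcripts of bru1, Act87E, tmod and SERCA, and Mlc2, Tpst and the single markers named, were chosen after their values were seen. The genes, lists and markers were chosen with earlier results of these data known. Replicates were separate vials of 1 experiment, so that p-values measure the spread between vials. Reads carry no molecular identifiers, and the limit given for a count of 0 covers counting error only.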

Additional observations from a re-analysis of the deposited data

How the results depend on the processing

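The transcript NM_001258724.2 of up kept a negative log2 fold change under all 14 alternatives, between -5.86 and -3.85. Its call did not hold across tools. Under the call rule, edgeR called 0 of the 23 transcripts and 0 of all tested, DESeq2 called 1 of the 23 and 76 of all, and limma-voom called 0 and 0. With transcripts summed, DESeq2 called 1 of the 9 genes and the other settings 0. The isoform usage test called 1 gene, up, with 10 counts in every library, and 0 with the other scalings, without a filter and with limma diffSplice. Leaving out 1 library at a time gave 0 calls among the 23 transcripts, 0 to 1 among all tested (1 without replicate 3 of LB-flies) and 0 in usage.

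Whether the replicate numbers pair the vials could not be decided. Deviations of same-numbered libraries correlated at -0.16 and 0.02 by repeat number and at -0.16 and -0.18 by library name (7022 transcripts). The deviations of the 2 NB libraries are mirror images of each other, so these correlations cannot settle it. With a replicate block by repeat number edgeR called 1 of the 23 transcripts, up (log2 fold change -5.69, adjusted p = 0.0228), and 5 of all tested, and with a block by library name 0 and 0. In usage each of these blocks called 1 gene, up. A block with crossed library names, chosen after seeing the data, called 0 throughout.

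Of the other 429 values recomputed, 1 was called, up summed with DESeq2, and 51 had another sign than the main value, none with p under 0.05. Counts of at most 47 a library limit the smaller transcripts of up, wupA, TpnC47D, TpnC73F, TpnC25D and Tm2.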
